A study of Saccharomyces cerevisiae with 12 samples.

Results

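The 34 MRPL genes of Saccharomyces cerevisiae, MRPL1 to MRPL51 by name, encode proteins of the large subunit of the mitochondrial ribosome. They were chosen by name, with earlier results of these data known, from 7112 gene identifiers with an estimate. All 34 of them were among the 6361 identifiers that passed the filter on low counts. The reference annotation describes each of the 34 as a mitochondrial large ribosomal subunit protein. By the annotated family names, 14 belong to families found in all ribosomes (uL), 7 to families shared with bacteria (bL) and 13 to families of mitochondrial ribosomes (mL).

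RNA was sequenced from 6 groups of 2 libraries, all of strain MGD353-13D, harvested in mid log phase from YPD, a rich medium with glucose. WT is the wild type. Sdc1_KO carries a deletion of SDC1, which encodes a subunit of the Set1 complex, the enzyme that methylates lysine 4 of histone H3. Dpy30_KO carries a deletion of the DPY30 motif of Sdc1, and Sdc1_mut a point mutant of Sdc1. Jhd2_KO carries a deletion of JHD2, which encodes the demethylase of the same lysine, and Sdc1_mut + Jhd2_KO, here called the double mutant, carries the Sdc1 point mutant and the JHD2 deletion together. The study's title concerns how the Set1 complex and Jhd2 set this methylation, and histone methylation was not analysed here. Whether paired libraries stem from separate cultures is not stated in the labels. The p-values therefore measure only the spread between these libraries, which may be technical.

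The mitochondrial ribosome translates the few proteins that mitochondrial DNA encodes, nearly all of them subunits of the respiratory chain and the ATP synthase. Its ribosomal RNAs come from mitochondrial DNA, while almost all of its proteins are encoded in the nucleus, made in the cytosol and imported. In yeast the Pumilio-family protein Puf3 binds the 3′ untranslated regions of many of these nuclear mRNAs and, in cells growing on glucose, is known to speed their decay.

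The letters TGTANATA, the DNA form of the core sequence that Puf3 binds, stood within 200 bases after the stop codon, on the sense strand, in 34 of 34 MRPL genes. The same search found them in 14.1% of 6002 protein-coding genes, and on the other strand in 17.6% of MRPL genes against 13.2% of genes. Within 100 bases 30 of the 34 held them, against 10.1% of genes. The 42 matches began 13 to 165 bases after the stop codon, with a median of 54.5 bases, and 8 genes held 2 matches. A C stood 2 bases before the match in 28 of 42 cases (66.7%) and in 228 of 881 matches in all other genes (25.9%). The free base was A in 16 matches, T in 15, C in 10 and G in 1. A match describes letters and is not a site shown to be bound. The matches below, from the R64 assembly (the sequence of sacCer3), belong to genes whose levels are described further on, with the match in capitals between 11 bases on each side. MRPL1, MRPL3 and MRPL28 hold 2 matches each, of which 1 is shown. The matches left out for these genes have no C 2 bases before them.
MRPL1 (chrIV:682619-682648, minus strand): atataaaatcaTGTACATAcaaagtaaccg
MRPL35 (chrIV:1111710-1111739, plus strand): ttatagtatccTGTACATAtaaaataacgt
MRPL17 (chrXIV:171334-171363, minus strand): cgtcaatcacaTGTAAATAtcattaaatga
MRPL23 (chrXV:612535-612564, plus strand): tcttcaatccaTGTATATAtttatctgtta
MRPL3 (chrXIII:323089-323118, plus strand): gaatacattctTGTACATAtatatatacac
MRPL50 (chrXIV:669719-669748, minus strand): gcgtacaatctTGTATATAggcaacatcgc
MRPL32 (chrIII:119206-119235, plus strand): aaacttaagccTGTATATAgaaacttaatt
MRPL28 (chrIV:1386537-1386566, plus strand): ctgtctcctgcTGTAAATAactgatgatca
All 34 genes carried the letters, so their presence cannot separate genes that fell from genes that rose. A part of Puf3 in the changes described below was not tested.

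**Figure D1:**
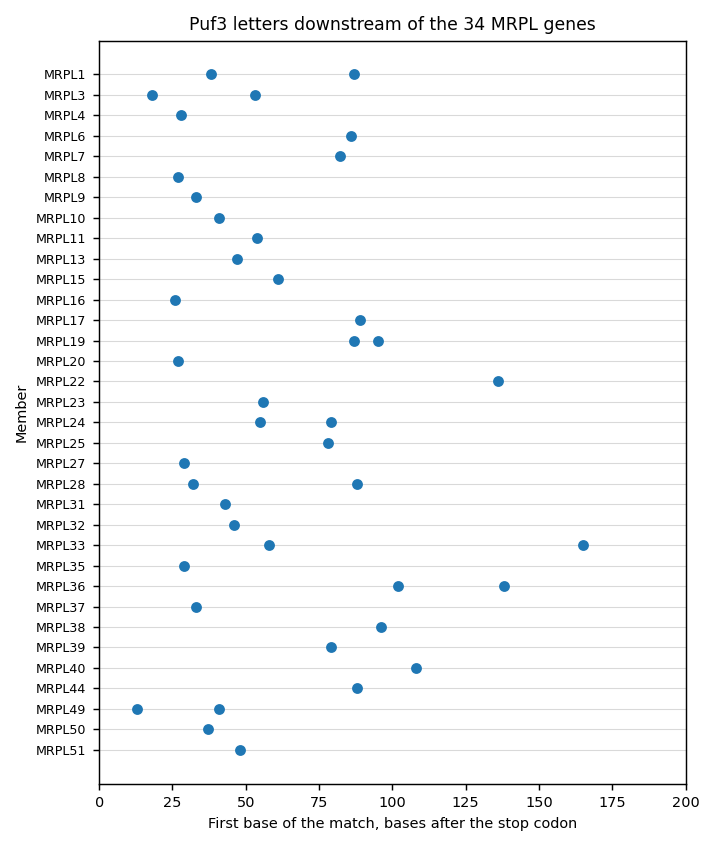
Distance from the stop codon to the first base of each TGTANATA match on the sense strand, in bases, for each of the 34 MRPL genes within a window of 200 bases. Each gene has at least 1 match, 8 genes have 2, and 37 of the 42 matches begin within 100 bases.

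The plot of match positions shows the crowding of matches close to the stop codon. The letters were as frequent in the rest of the mitochondrial ribosome, in 11 of 11 other large subunit genes and 30 of 31 small subunit genes. They were found in 5 of 6 genes of mitochondrial translation factors and 3 of 5 genes of mitoribosome assembly factors, but in 3 of 76 genes of the cytosolic large subunit (RPL), 3.95%. Upstream the MRPL genes were not rich in 2 other letter strings, searched on both strands within 250 bases before the start codon. CCAAT, the core of the sequence bound by the Hap activator complex of respiratory genes, stood in 26.5% of MRPL genes and 35.4% of genes. AATTTT, part of the growth-related element described upstream of ribosome biogenesis genes, stood in 35.3% and 48.6%.

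The 34 genes lie on 12 chromosomes, with coding lengths of 213 to 1173 bases, and 1 of them (MRPL44) has more than 1 coding exon. MRPL19 overlaps YNL184C on the same strand over 23.7% of its length, and its deposited counts were fractional in all 12 libraries. MRPL51 overlaps YPR099C on the opposite strand over 76.4% of its length, and whether the counting used strand is not given in the sources used here. The values of both genes are therefore uncertain.

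Levels are given as CPM, the fragment count relative to the TMM-scaled library size. Divided by coding length in kilobases, the WT level was highest for MRPL36 (YBR122C, bL31m), at 113 ± 11.2 CPM per kilobase (SD, n = 2), followed by MRPL24 (YMR193W, bL28m) at 102 ± 12.1 and MRPL51 (YPR100W, mL43) at 98.5 ± 6.85. These 3 values lay within their spread, so their order is not resolved. The median of the 34 genes was 59.6 CPM per kilobase. MRPL38 (YKL170W, uL14m) was lowest, at 8.93 and 11.7 CPM per kilobase, and stood clear of the next genes, MRPL20 (YKR085C, mL58) at 31.6 and 34.8 and MRPL49 (YJL096W, bL21m) at 29.3 and 37.8. The highest mean was 10.9 times the lowest.

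The authors' deposited FPKM put other genes at the top of the WT order: MRPL33 (YMR286W, uL30m) at 287 and 317, MRPL39 (YML009C, bL33m) at 229 and 284 and MRPL31 (YKL138C, mL60) at 216 and 211. MRPL33 and MRPL39 are among the 3 genes with coding lengths under 300 bases, in which the deposited FPKM was 2.96 to 5.06 times the CPM per kilobase. In the other genes this ratio was 0.792 to 2.53, and MRPL31 held the highest. At the low end of both orders stood MRPL38, with an FPKM of 13.8 and 17.8, and MRPL20, with 35.7 and 38.2. MRPL3 (YMR024W, mL44) followed in FPKM with 38.4 and 41.2. The order of levels among the shortest genes thus depends on the length correction.

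The libraries held 8652878 to 26041718 fragments each, of which the MRPL genes took 13261 to 34113. SDC1 had 0 fragments in both Sdc1_KO libraries against 638 and 610 in WT, and JHD2 had 0 in the Jhd2_KO and double-mutant libraries against 165 and 104 in WT. In Sdc1_KO, Dpy30_KO and Sdc1_mut the JHD2 level was higher than in WT, at 13 to 17 CPM against 6.27 and 4.36 CPM. Mitochondrially encoded RNA numbered 29213 to 62790 fragments per library in WT, Sdc1_KO and Jhd2_KO, but 2 to 17 in Dpy30_KO, Sdc1_mut and the double mutant. Of 54 mitochondrially encoded identifiers, 44 were at 0 in all 6 libraries of those 3 strains, among them 6 of the 10 named genes for proteins and ribosomal RNAs. Only 24 of the 54 were above 0 in all 6 libraries of WT, Sdc1_KO and Jhd2_KO, so a 0 is not by itself a loss. ATP8, 1 of the 6 named genes, had only 0 or 1 fragments in each of those libraries. The Sdc1_KO libraries differed most between themselves, with an SD of the log2 difference over genes of 0.429 against 0.247 to 0.296 in the other groups. In them the median gene of chromosome III stood 1.02 and 1.04 above WT on the log2 scale, while the medians of other chromosomes lay between -0.07 and 0.21. DNA copy number was not measured. Of the mating-type marker lists, 5 of 6 a-specific genes were lower than in WT in each of Dpy30_KO, Sdc1_mut and the double mutant, where they summed to 167 to 255 CPM against 471 to 474 in WT. The 5 alpha-specific genes summed to 60 to 62.4 CPM in WT and 73 to 97.2 CPM in those strains. Within that sum MF(ALPHA)1 had a mean of 0.316 CPM in WT and STE3 1.62 CPM. Both were higher in those strains and in Sdc1_KO, at means of 2.88 to 4.12 and 5.8 to 9.41 CPM. STE3 was also higher in Jhd2_KO, at 4.93 CPM. The part of these differences in the MRPL values was not tested.

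Calls are genes with an adjusted p under 0.05 in edgeR's quasi-likelihood test over all 6361 identifiers, and each change is given on the log2 scale, with ± its standard error (SE). The comparisons against WT share the WT libraries, and those of the double mutant share its libraries, so the counts of different comparisons are not independent of each other. In these bulk samples fewer cells with a transcript and less of it per cell cannot be told apart.

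**Figure D2:**
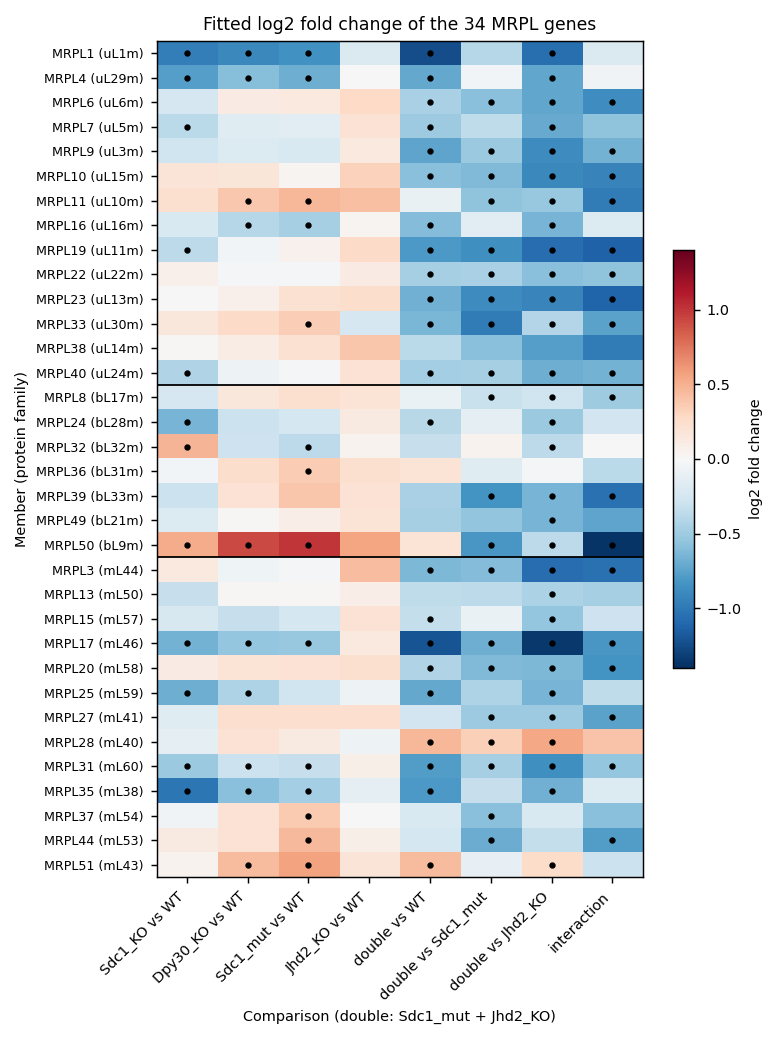
Fitted log2 fold change of each of the 34 MRPL genes (rows, grouped by protein family with black lines between uL, bL and mL) in 8 comparisons (columns; interaction is the double mutant against Sdc1_mut minus Jhd2_KO against WT), blue for lower and red for higher, with a dot where the adjusted p was under 0.05. The 3 columns of the double mutant are mostly blue, with 20, 19 and 28 genes lower, while the column of Jhd2_KO against WT has no dot.

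The map of fitted changes shows a minority of the MRPL genes lower in each SDC1 mutant and most of them lower in the double mutant. In the deletion of SDC1 (Sdc1_KO) 10 of 34 MRPL genes fell and 2 rose against WT, beside 22.4% of all genes lower and 28% higher. The median log2 fold change of the 34 was -0.20, against 0.04 for all genes. Over all genes 1426 were lower and 1782 higher (55.5% of calls higher), and in the deposited FPKM 1674 and 1399 (45.5%), where 15 MRPL genes were lower and 3 higher. Fallers came from each family group, 5 uL, 1 bL and 4 mL genes, and both genes that rose were bL.

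The largest fall in Sdc1_KO was that of MRPL35 (YDR322W), whose protein mL38 is part of the central protuberance, the crest of the large subunit that faces the small subunit. Its level was 52.5 and 54.8 CPM in WT and 23.2 and 30 CPM in Sdc1_KO, a change of -1.01 ± 0.13 (SE, adjusted p = 6e-05). The groups were far apart, and the WT libraries were the highest of all 12, just above a Jhd2_KO library at 52.4 CPM. MRPL1 (YDR116C) encodes uL1m, the protein of the mobile stalk at the exit site for transfer RNA. It went from 67.2 and 73.4 CPM to 30 and 41.7 CPM (-0.97 ± 0.14, adjusted p = 0.00014), again with no overlap. MRPL4 (YLR439W) encodes uL29m, which sits beside the exit of the peptide tunnel, where new proteins leave the ribosome for the inner membrane. It went from 83.2 and 82.5 CPM to 39.2 and 57.8 CPM (-0.77 ± 0.15, adjusted p = 0.0011). MRPL25 (YGR076C, mL59) went from 31.7 and 32.3 CPM to 17.1 and 22.6 CPM (-0.68 ± 0.15, adjusted p = 0.0025). In all 4 genes the second Sdc1_KO library was the higher of the pair, and both lay below WT. Smaller falls were called for MRPL17, MRPL24, MRPL31, MRPL40, MRPL7 and MRPL19, from -0.66 to -0.37. Those of MRPL7 and MRPL19 were lost when some libraries were left out: MRPL7 without WT replicate 1 (adjusted p = 0.12), WT replicate 2 (0.11) or Sdc1_KO replicate 1 (-0.18, adjusted p = 0.26), and MRPL19 without WT replicate 2 (0.21) or Sdc1_KO replicate 1 (0.18). Without Sdc1_KO replicate 2 the value for MRPL7 was -0.67 and 16 MRPL genes were lower. The genes called higher numbered 1 without WT replicate 1, WT replicate 2 or Sdc1_KO replicate 2.

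Both rises in Sdc1_KO were of moderate size. MRPL50 (YNR022C), which encodes bL9m, had 16.3 and 18.1 CPM in WT and 26.1 and 23.2 CPM in Sdc1_KO (0.52 ± 0.13, adjusted p = 0.0057), and the call ended without WT replicate 1 (adjusted p = 0.056). MRPL32 (YCR003W) encodes bL32m, a protein that the m-AAA protease of the inner membrane trims before it is built into the ribosome. It had 40.2 and 37.1 CPM in WT and 48.2 and 59.3 CPM in Sdc1_KO, the highest values of the 12 libraries, at 0.48 ± 0.13 (adjusted p = 0.011). The call ended without WT replicate 2 (adjusted p = 0.075) and without Sdc1_KO replicate 2, where the value was 0.32 (adjusted p = 0.061). MRPL32 is the MRPL gene on chromosome III, where 133 of 157 genes tested were higher in Sdc1_KO with a median of 1.05. It stood 0.57 below that median, and 30 of the 157 genes had a smaller log2 fold change. Its divergent neighbour CDC10, a septin gene, was at 1.25 and the other large subunit genes IMG1 and IMG2, also on chromosome III, were at 0.91 and 0.57. The part of the chromosome-wide shift in the MRPL32 value was not tested. With chromosome III and mitochondrially encoded genes left out of the fit, MRPL50 was the 1 MRPL gene higher.

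**Figure D3:**
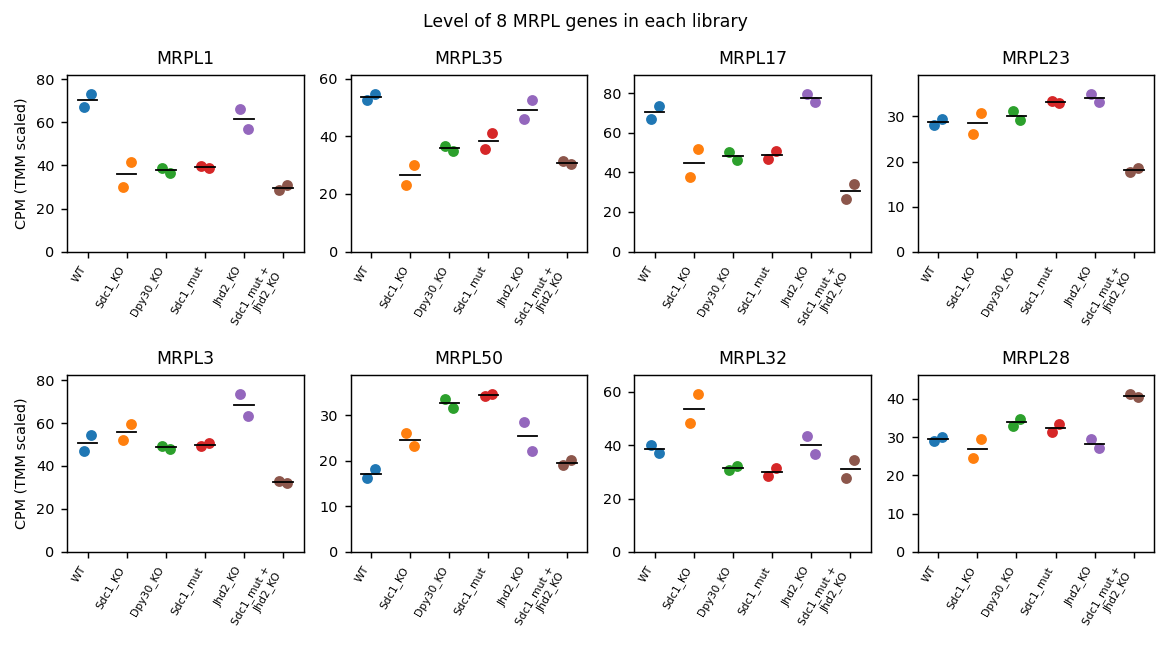
CPM (TMM scaled) of 8 MRPL genes in each of the 12 libraries, points for libraries and bars for the mean of the 2 libraries of a group. MRPL1 and MRPL35 are lower than WT in the 4 strains with a changed SDC1, MRPL23 and MRPL3 only stand low in the double mutant, at 17.7 to 18.5 and 32 to 33.2 CPM, and MRPL28 is highest there, at 40.4 to 41.3 CPM.

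In the DPY30 motif deletion (Dpy30_KO) 7 MRPL genes fell and 3 rose, beside 25.1% of genes lower and 27.2% higher, with a median of 0.02 (all genes 0.02). In the point mutant (Sdc1_mut) 7 fell and 7 rose, beside 24.7% lower and 27.9% higher, with a median of 0.05 (all genes 0.02). The falls were led by the same 4 genes in both strains. MRPL1 had 38.8 and 36.5 CPM in Dpy30_KO and 39.6 and 38.7 CPM in Sdc1_mut, changes of -0.90 ± 0.14 (adjusted p = 0.0002) and -0.85 ± 0.14 (adjusted p = 0.0003). All 4 libraries lay below both WT libraries by a wide margin. MRPL4 had 51.3 and 58.3 CPM in Dpy30_KO (-0.60 ± 0.15, adjusted p = 0.0051) and 48.2 and 54.9 CPM in Sdc1_mut (-0.68 ± 0.15, adjusted p = 0.0023), all below WT. The call in Dpy30_KO ended without Dpy30_KO replicate 1 (adjusted p = 0.055).

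MRPL35 had 36.7 and 35 CPM in Dpy30_KO (-0.58 ± 0.13, adjusted p = 0.0022) and 35.6 and 41.1 CPM in Sdc1_mut (-0.48 ± 0.13, adjusted p = 0.0067). These levels lay between those of WT and those of Sdc1_KO, and the call in Sdc1_mut ended without Sdc1_mut replicate 1 (adjusted p = 0.074). MRPL17 (YNL252C) encodes mL46 of the central protuberance. It had 67.1 and 73.5 CPM in WT, 50.3 and 46.1 CPM in Dpy30_KO (-0.54 ± 0.15, adjusted p = 0.0079) and 46.6 and 50.8 CPM in Sdc1_mut (-0.53 ± 0.15, adjusted p = 0.0093), with no overlap. Its calls ended without WT replicate 2 (adjusted p = 0.055 and 0.063), without Dpy30_KO replicate 2 (0.065) and without Sdc1_mut replicate 1 (0.072). MRPL16 (YBL038W, uL16m) and MRPL31 were also lower in both strains, from -0.46 to -0.30, as were MRPL25 in Dpy30_KO (-0.43) and MRPL32 in Sdc1_mut (-0.37). Without 1 or another library the lower genes numbered 3 to 6 in Dpy30_KO (3 without WT replicate 2 and 4 without either Dpy30_KO library). In Sdc1_mut they numbered 3 to 5 (3 without WT replicate 2 or Sdc1_mut replicate 1 and 4 without Sdc1_mut replicate 2).

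The rises common to both strains were those of MRPL50, MRPL51 and MRPL11. MRPL50 had 33.6 and 31.6 CPM in Dpy30_KO (0.92 ± 0.13, adjusted p = 0.0001) and 34.3 and 34.7 CPM in Sdc1_mut (1.00 ± 0.13, adjusted p = 5.4e-05). These 4 libraries were the highest of the 12, followed by a Jhd2_KO library at 28.6 CPM. MRPL51, uncertain because of its overlap, had 43.7 and 39.6 CPM in WT, 56.3 and 57.1 CPM in Dpy30_KO (0.44 ± 0.10, adjusted p = 0.0023) and 61.1 and 61.4 CPM in Sdc1_mut (0.56 ± 0.10, adjusted p = 0.00049). MRPL11 (YDL202W) encodes uL10m, the base of the stalk that receives translation factors, and was at 0.38 (adjusted p = 0.019) and 0.46 (adjusted p = 0.0069). Its call in Dpy30_KO ended without WT replicate 1 (adjusted p = 0.082), WT replicate 2 (0.069) or Dpy30_KO replicate 1 (0.13), and that in Sdc1_mut without Sdc1_mut replicate 2 (0.068). In Sdc1_mut MRPL36, MRPL37, MRPL44 and MRPL33 were higher too, from 0.34 to 0.45. Without WT replicate 1 or Sdc1_mut replicate 2 the higher genes numbered 3 in Sdc1_mut, and 4 without Sdc1_mut replicate 1. In the deposited FPKM 5 MRPL genes were higher in Dpy30_KO.

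Dpy30_KO and Sdc1_mut could not be told apart by any single MRPL gene. None of the 34 was called between these strains in edgeR's quasi-likelihood test, beside 0.0157% of all genes (1 gene), and DESeq2 called 0 of the 34. In edgeR's test 0 of the 34 had an unadjusted p under 0.05, against 437 of 6361 genes. The fitted value was lower in Dpy30_KO for 27 of the 34, against 3389 of 6361 genes. The fitted differences ran from -0.25 to 0.12, and over the 34 genes their 95% intervals reached from -0.83 to 0.61, or from -0.65 to 0.42 without the sparsely counted MRPL38. Mitochondrially encoded RNA was nearly absent from both strains.

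Sdc1_KO differed from both of them. Against Sdc1_mut 10 MRPL genes were lower and 1 was higher, beside 10.1% and 11.3% of all genes, and the median was -0.25 (all genes -0.00). Against Dpy30_KO 6 were lower and 1 was higher, beside 11.2% and 14.0%, with a median of -0.21 (all genes 0.01). The higher gene was MRPL32 in both, at 0.84 ± 0.14 and 0.77 ± 0.14 (adjusted p = 0.0011 and 0.0017), with all Sdc1_KO libraries above all libraries of the other strains. Genes lower in both contrasts included MRPL35 (-0.53 and -0.43), MRPL50 (-0.49 and -0.40) and MRPL51 (-0.51 and -0.40). Of these lower calls, all but that of MRPL51 against Sdc1_mut ended with only the groups compared in the fit. The same calls also ended without at least 1 of the libraries. For MRPL35 the difference from Dpy30_KO was -0.27 without Sdc1_KO replicate 1. With only the groups compared 1 gene was lower than in Sdc1_mut and 0 were lower than in Dpy30_KO. The counts of lower genes also moved with single libraries. Against Sdc1_mut they were 21 without Sdc1_KO replicate 2, 4 without Sdc1_KO replicate 1, 3 without Sdc1_mut replicate 1 and 1 without Sdc1_mut replicate 2, and 2 genes were higher without Sdc1_KO replicate 1. Against Dpy30_KO they were 17 without Sdc1_KO replicate 2, 3 without Sdc1_KO replicate 1, 0 without Dpy30_KO replicate 1 and 1 without Dpy30_KO replicate 2. Sdc1_KO also differed from both strains in mitochondrially encoded RNA, and the part of that difference cannot be told apart from that of the SDC1 alleles.

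The deletion of JHD2 alone gave few or no calls among the MRPL genes, depending on the fit. In Jhd2_KO 0 of 34 were called in edgeR's quasi-likelihood test over all 12 libraries, beside 1.63% of all genes in either direction. With only the WT and Jhd2_KO libraries in the same test 4 were called higher, beside 285 of 6269 genes. DESeq2 called 1 higher, beside 106 of 6652 genes. An unadjusted p under 0.05 in the fit of all 12 libraries was found for 6 MRPL genes and for 1078 of 6361 genes. Over all genes 56 were lower and 48 higher (46.2% of calls higher), and in the deposited FPKM 40 and 13 (24.5%). The fitted values were mostly above 0, in 28 of 34 MRPL genes against 3148 of 6361 genes, with a median of 0.18 against -0.00. The small subunit genes leaned the same way, with 22 of 31 above 0 and a median of 0.18. The median was 0.02 for the 11 other large subunit genes and -0.20 for the RPL genes. The largest MRPL value was that of MRPL50, with 28.6 and 22.2 CPM (0.55 ± 0.14, adjusted p = 0.06). MRPL3 followed with 73.6 and 63.3 CPM against 46.9 and 54.4 in WT (0.43 ± 0.11, adjusted p = 0.069). In both genes the Jhd2_KO libraries lay above the WT libraries, but the adjusted p missed the threshold. The 95% interval was 0.26 to 0.84 for MRPL50 and 0.19 to 0.67 for MRPL3, and over the 34 genes without MRPL38 the intervals reached from -0.53 to 0.84.

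In the double mutant the MRPL genes were lower as a rule. Against WT 20 of 34 fell and 2 rose, beside 30.1% of genes lower and 29.1% higher, and the median was -0.46 against 0.00 for all genes. Against Sdc1_mut, the strain that differs from it by JHD2, 19 fell and 1 rose, beside 19.4% and 13.2%, with a median of -0.49 (all genes -0.04). Against Jhd2_KO, which lacks the point mutant, 28 fell and 2 rose, beside 29.8% and 28.6%. The median was -0.65 (all genes 0.00). Mitochondrially encoded RNA was present in WT and Jhd2_KO and nearly absent from the double mutant. In the comparisons with WT and Jhd2_KO its part cannot be told apart from that of the genotypes. Fallers against both single mutants numbered 17, beside 10.8% of all genes. In 15 of the 34 genes both double-mutant libraries lay below all 10 other libraries, which 17.0% of all genes did. Against Sdc1_mut the lower genes numbered 11 without Sdc1_mut replicate 2 and 12 without double-mutant replicate 1, and the higher gene, MRPL28, was lost without any 1 of the 4 libraries. Against Jhd2_KO 1 gene was higher without either Jhd2_KO library or double-mutant replicate 2. In the deposited FPKM 18 MRPL genes were lower than in Sdc1_mut and 1 higher, while over all genes the calls went from 1231 lower and 838 higher (40.5% higher) to 969 and 1027 (51.5%).

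By family the falls of the double mutant against WT were 12 of 14 uL genes, 7 of 13 mL genes (with 2 higher) and 1 of 7 bL genes. Against Jhd2_KO they were 13 of 14 uL, 9 of 13 mL (with 2 higher) and 6 of 7 bL genes. These are counts over genes, and a difference between the families was not tested. By place in the ribosome, in groups set after the values had been seen, 5 of the 6 genes for proteins around the tunnel exit fell against WT (MRPL3, MRPL4, MRPL15, MRPL22 and MRPL40), and MRPL13 was at -0.35 (adjusted p = 0.05, above the threshold before rounding). Both genes for proteins near the peptidyl transferase centre fell, MRPL9 (YGR220C, uL3m) by 0.74 and MRPL16 by 0.61. Of the 5 genes for the central protuberance 3 fell, MRPL17, MRPL35 and MRPL7, and 1 rose, MRPL28. Of the 3 stalk genes MRPL1 and MRPL19 fell, and MRPL11 was at -0.10 (adjusted p = 0.49).

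The genes that were already low in the SDC1 mutants were among the lowest in the double mutant. MRPL1 had 28.5 and 30.9 CPM (-1.24 ± 0.14 against WT, adjusted p = 1.2e-05) and MRPL35 had 31.5 and 30.2 CPM (-0.80 ± 0.13, adjusted p = 0.00018). For MRPL35 these levels were just above those of Sdc1_KO, and for both genes the comparison with Sdc1_mut missed the threshold (-0.40, adjusted p = 0.053, and -0.32, adjusted p = 0.084). MRPL17 had 26.6 and 34.2 CPM (-1.21 ± 0.15, adjusted p = 2.4e-05), below Sdc1_mut by 0.68 ± 0.15 (adjusted p = 0.0051), with both libraries the lowest of the 12. That second call ended without double-mutant replicate 1 (-0.52, adjusted p = 0.063). In 5 genes, MRPL1, MRPL4, MRPL17, MRPL31 and MRPL35, a fall was called in all 4 strains with a changed SDC1, as it was in 11.2% of all genes. MRPL31 had 34.3 and 32.7 CPM in WT, 21.8 and 24.9 CPM in Sdc1_KO and 18 and 21 CPM in the double mutant. Its levels in Dpy30_KO (27.9 and 26.6 CPM) and Sdc1_mut (26.2 and 27.7 CPM) were between them, and those calls ended without any 1 of the libraries of the comparison and in the deposited FPKM (-0.16 and -0.19). They also ended with DESeq2 (adjusted p = 0.072 and 0.059) and, in Dpy30_KO, with limma-trend (0.051).

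Another 9 genes were called lower than WT in the double mutant but in no SDC1 or JHD2 single mutant. They were MRPL3, MRPL6, MRPL9, MRPL10, MRPL15, MRPL20, MRPL22, MRPL23 and MRPL33. Of all genes 7.95% did the same. A missing call in a single mutant does not mean an unchanged level. MRPL15 had means of 26.3, 24.6 and 25.9 CPM in Sdc1_KO, Dpy30_KO and Sdc1_mut. These were near its 24.4 CPM in the double mutant, against 30.7 CPM in WT. MRPL3 encodes mL44, a protein with an RNase III-like fold. It had 33.2 and 32 CPM, against 46.9 to 73.6 CPM in the other 10 libraries, a change of -0.63 ± 0.11 against WT (adjusted p = 0.00037), -0.61 ± 0.11 against Sdc1_mut (adjusted p = 0.0017) and -1.07 ± 0.11 against Jhd2_KO (adjusted p = 7.5e-06). MRPL23 (YOR150W, uL13m) had 17.7 and 18.5 CPM against 26.2 to 35.1 CPM elsewhere, and was lower than in WT by 0.67 on the log2 scale (adjusted p = 0.00026). The double-mutant libraries stood alone at the bottom for both genes. MRPL10 (YNL284C, uL15m) had 34.7 CPM in both libraries against 50.7 to 65.4 CPM elsewhere (-0.58 ± 0.09, adjusted p = 0.00018). MRPL33 had 9.3 and 10.7 CPM against 14.9 and 16.3 in WT (-0.64 ± 0.14, adjusted p = 0.0014) and 20.2 and 19.4 in Sdc1_mut (-0.98 ± 0.14, adjusted p = 0.00034). Its Sdc1_mut level was above WT (0.34 ± 0.13, adjusted p = 0.041), a call lost in every fit without 1 library. The falls of 3 of the 9 genes against WT ended without single libraries. For MRPL15 these were WT replicate 2 (-0.19, adjusted p = 0.31) and either double-mutant library (0.12 and 0.11). For MRPL6 they were WT replicate 2 (0.12) and either double-mutant library (0.094 and 0.063), and for MRPL20 WT replicate 2 (0.075) and double-mutant replicate 1 (0.071).

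MRPL19 (YNL185C), uncertain because of its overlap, encodes uL11m, which helps to form the factor-binding stalk base. It had 20.2 and 23 CPM in WT and 12.9 and 11.9 CPM in the double mutant (-0.80 ± 0.14, adjusted p = 0.00033), the lowest of all libraries. MRPL20 had 18.6 and 20.4 CPM in WT and 14 and 15.2 CPM in the double mutant (-0.42 ± 0.12, adjusted p = 0.011). MRPL39 had 11.2 and 13.7 CPM in WT and 8.59 and 9.63 CPM in the double mutant, where the adjusted p against WT was 0.08. Against Sdc1_mut, with 16.1 and 16.6 CPM, MRPL39 fell by 0.84 (adjusted p = 0.0096), a call that ended without Sdc1_mut replicate 2 (0.06) or double-mutant replicate 1 (0.073). MRPL25 had 17 and 22 CPM (-0.72 ± 0.15 against WT, adjusted p = 0.0014) and MRPL4 had 47.8 and 53 CPM (-0.72 ± 0.15, adjusted p = 0.0013), for both near their Sdc1_KO values.

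Against this trend MRPL28 and MRPL51 rose. MRPL28 (YDR462W) encodes mL40 of the central protuberance. It had 29 and 30.1 CPM in WT and 41.3 and 40.4 CPM in the double mutant, the highest of the 12 libraries, at 0.47 ± 0.11 (adjusted p = 0.0029) against WT and 0.54 ± 0.12 (adjusted p = 0.0016) against Jhd2_KO. Its rise against Sdc1_mut (0.33 ± 0.11, adjusted p = 0.04) ended without any 1 of the 4 libraries and with DESeq2, and stood at 0.55 in the deposited FPKM (adjusted p = 0.0019). MRPL28 lies 12498 bases from SDC1 on chromosome IV. MRPL51 had 52.3 and 60.8 CPM (0.44 ± 0.10 against WT, adjusted p = 0.0019), near the levels of Dpy30_KO and Sdc1_mut. MRPL50, raised in Sdc1_mut, was back at 19 and 20.2 CPM in the double mutant, at 0.19 ± 0.13 against WT (adjusted p = 0.25) and -0.82 ± 0.13 against Sdc1_mut (adjusted p = 0.00081). Its fall against Jhd2_KO (-0.37, adjusted p = 0.037) was at -0.18 (adjusted p = 0.34) without Jhd2_KO replicate 1, and also ended without either double-mutant library (0.14 and 0.072), with RLE scaling (0.051) and with DESeq2 (0.083). MRPL32 had 30.9 and 32.3 CPM in Dpy30_KO, 28.5 and 31.4 in Sdc1_mut and 27.6 and 34.6 in the double mutant, and fell in Sdc1_mut alone of these (-0.37 ± 0.14, adjusted p = 0.043), in a call lost in every fit without 1 library. It was thus called higher in Sdc1_KO and lower in Sdc1_mut.

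MRPL38, which encodes uL14m, had an adjusted p above 0.05 in every comparison with edgeR's quasi-likelihood test. Its level was 3.73 and 4.9 CPM in WT and ran from 2.5 to 6.24 CPM over the 12 libraries, with standard errors of 0.31 to 0.46. These were the largest of the 34 genes, so smaller changes such as those of most other MRPL genes were hard to detect at this depth.

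Whether the effect of deleting JHD2 depends on the SDC1 allele was tested as an interaction, the change from Sdc1_mut to the double mutant minus that from WT to Jhd2_KO. These changes share no library. The difference was called below 0 for 18 of 34 MRPL genes, beside 12% of all genes. The fitted value was below 0 for 33 of 34, against 3409 of 6361 genes. Its median was -0.62 (all genes -0.04). The tilt was not particular to the MRPL genes. Of 31 small subunit genes 14 were called below 0 and 1 above, with a median of -0.50. Of 11 other large subunit genes 5 were called below 0 (median -0.43), as were 16 of 73 RPL genes (median -0.43). Among the MRPL genes the difference was largest for MRPL50 (-1.37 ± 0.19, adjusted p = 0.00084), MRPL19 (-1.13 ± 0.20, adjusted p = 0.0026) and MRPL23 (-1.12 ± 0.16, adjusted p = 0.00092). For MRPL23 the level went from 28.2 and 29.4 CPM in WT to 35.1 and 33.3 CPM in Jhd2_KO, but from 33.5 and 33.1 CPM in Sdc1_mut to 17.7 and 18.5 CPM in the double mutant. MRPL3 (-1.04 ± 0.16, adjusted p = 0.0014) and MRPL10 (-0.94 ± 0.13, adjusted p = 0.00086) had the same form, with the Jhd2_KO libraries highest and the double-mutant libraries lowest of the 12. Without single libraries the count was 9 (WT replicate 1 or double-mutant replicate 1), 10 (Sdc1_mut replicate 2) or 11 (either Jhd2_KO library). The calls of 9 of the 18 genes held in every setting tried. In the deposited FPKM 16 MRPL genes were called below 0 and 1 above, while over all genes the calls went from 763 below and 534 above (41.2% above) to 484 and 638 (56.9%). In 1 background mitochondrially encoded RNA was present and in the other nearly absent, so its part in the difference cannot be told apart from that of the point mutant. The backgrounds also differed in JHD2 RNA, with 6.27 and 4.36 CPM in WT and 13 and 14.2 CPM in Sdc1_mut. The part of that difference was not tested.

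**Figure D4:**
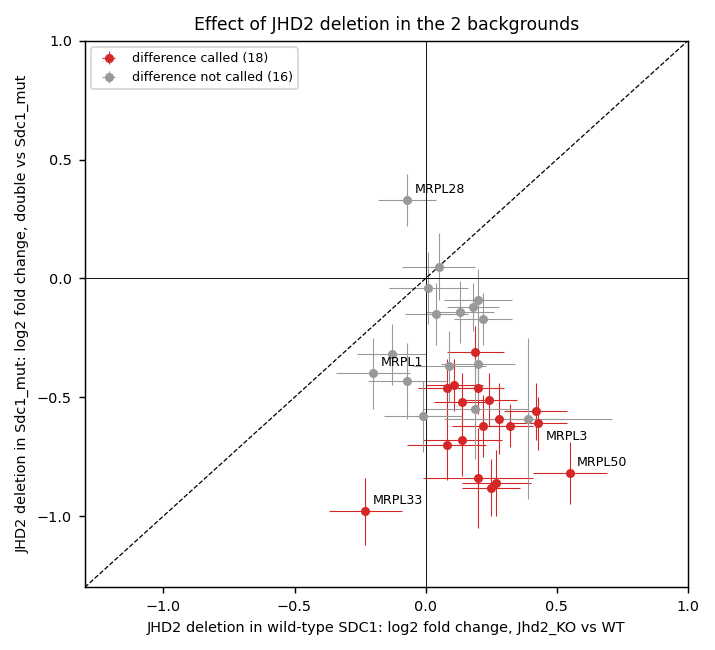
Effect of deleting JHD2 on each of the 34 MRPL genes, as log2 fold change with standard error bars, with SDC1 wild type (horizontal axis, Jhd2_KO against WT) and with the Sdc1 point mutant (vertical axis, double mutant against Sdc1_mut). The dashed line marks equal effects. Red points are the 18 genes whose difference was called, and all lie below the line, most of them right of 0 and below 0.

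The plot of JHD2 effects in both backgrounds shows 27 genes right of 0 and below 0 in the fitted values. The same count was not made over all genes. The single point above the line by more than its error is MRPL28, at 0.40 ± 0.16 (adjusted p = 0.099).

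Summed over the 34 genes, the level was 1297 and 1396 CPM in WT, 1041 and 1245 in Sdc1_KO, 1273 and 1257 in Dpy30_KO and 1273 and 1324 in Sdc1_mut. It was 1533 and 1438 CPM in Jhd2_KO and 957 and 1035 in the double mutant. The double mutant was thus lowest and Jhd2_KO highest, with the second Sdc1_KO library close to the strains with a motif or point mutant. The sum over the 34 genes relative to that over 31 small subunit genes was 0.707 and 0.71 in the double mutant, 0.847 and 0.855 in Sdc1_KO and 0.773 to 0.787 in the other 4 groups.

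**Figure D5:**
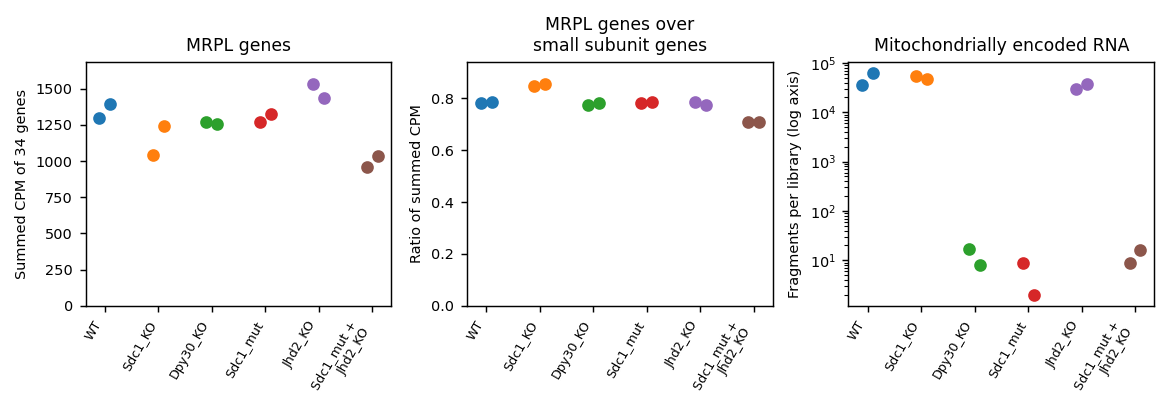
Per library, the summed CPM of the 34 MRPL genes (left), its ratio to the summed CPM of 31 small subunit genes (middle) and the number of mitochondrially encoded fragments on a log axis (right). The double-mutant libraries have the lowest sums (957 and 1035 CPM) and ratios (0.707 and 0.71), and share 2 to 17 mitochondrially encoded fragments with Dpy30_KO and Sdc1_mut.

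The panels of summed levels place the small subunit beside these values. Of its 31 genes 16 fell in Sdc1_KO against WT, led by RSM10 (-0.75 ± 0.11, adjusted p = 0.0002), and 16 fell and 2 rose in the double mutant, led by RSM23 (-1.06 ± 0.11, adjusted p = 4.7e-06). Against Sdc1_mut 14 fell and 1 rose in the double mutant, and against Jhd2_KO 23 fell. The medians of the small subunit and MRPL genes were -0.37 and -0.20 in Sdc1_KO against WT. For the double mutant they were -0.40 and -0.46 against WT, -0.31 and -0.49 against Sdc1_mut and -0.49 and -0.65 against Jhd2_KO. Of 11 other large subunit genes, named otherwise than MRPL, 6 fell and 2 rose in Sdc1_KO, the risers being IMG1 and IMG2 of chromosome III, and MRP20 fell most (-0.95 ± 0.12, adjusted p = 5.9e-05). In the double mutant 6 of the 11 fell against WT, led by RTC6 (-1.05 ± 0.19, adjusted p = 0.00044). The median of the 11 there was -0.55.

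Genes that act with the mitochondrial ribosome moved in their own ways. All 6 genes of translation factors fell in Sdc1_KO, and MEF2, a mitochondrial elongation factor G family gene, was at -0.62 there but at -1.89, -1.97 and -1.68 in Dpy30_KO, Sdc1_mut and the double mutant, the strains in which mitochondrially encoded RNA was nearly absent. TUF1, the mitochondrial elongation factor Tu gene, was at -0.60, -0.58 and -0.85 in those strains. Of 5 assembly factor genes MTG1, a GTPase of large subunit assembly, was lower (-0.54, -0.38 and -0.65) and MRH4, a helicase gene of the same process, was higher (0.69, 0.56 and 0.65) in the 3 strains. PUF3 itself was at -0.87 ± 0.11 in Sdc1_KO (adjusted p = 5.7e-05), with 65.5 and 57.1 CPM against 121 and 104 in WT, and at 0.17 in the double mutant (adjusted p = 0.19). Of the 4 genes of the Hap activator complex, HAP2 fell in Sdc1_KO, Dpy30_KO, Sdc1_mut and the double mutant (-0.52, -0.85, -0.78 and -1.31) and HAP3 in Dpy30_KO and the double mutant (-0.62 and -0.97), while HAP4, the activating subunit, was between -0.27 and 0.28 and was not called.

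The cytosolic large subunit moved otherwise. Of 73 RPL genes tested, 60, 61 and 65 rose in Sdc1_KO, Dpy30_KO and Sdc1_mut against WT, and 56 fell in the double mutant against Sdc1_mut. Their summed level was 33437 to 38464 CPM in WT, 54615 to 56061 CPM in Sdc1_mut and 40672 to 42284 CPM in the double mutant. Many RPL genes are near-identical pairs, so counts of single copies are uncertain. The fall from Sdc1_mut to the double mutant was thus common to MRPL and RPL genes, while against WT the double mutant was lower in 20 of 34 MRPL genes and in 7 of 73 RPL genes, of which 13 were higher.

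The upstream neighbours of the MRPL genes moved in both directions. Upstream of the MRPL genes lay a divergent gene in 20 cases and a tandem gene in 14. Of the 16 tested divergent neighbours of MRPL genes that fell in the double mutant against Jhd2_KO, 4 fell too and 5 rose. Of all genes 29.8% fell and 28.6% rose in that comparison. Among the tandem neighbours of the same MRPL genes, TMA64, TOS2, NPR1, PEX8, ERG6 and PHS1 fell and GYL1 and ASP1 rose. NRD1 and TDA7 were not called. A link between MRPL genes and their neighbours was not tested.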

How the data were processed

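RNA of 12 libraries was depleted of ribosomal RNA and made into directional libraries, per the labels' protocols. The authors' software was bcl2fastq 2.17.1.14, TopHat and Cufflinks with the sacCer3 build, per the submitters' processing notes; the annotation, the strand setting and the treatment of multiply mapped reads are not given in the sources used here. The deposited table, made by the authors, holds the expected count of fragments per identifier and library, and 97.8% of these values were whole. It also holds the FPKM values that the authors normalised. Of 7126 identifiers 14 that the table marks as not estimated were left out, 6048 of all matched the RefSeq annotation by locus tag, 31 by symbol and 1047 did not match.

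Expected counts were rounded and fitted over all 12 libraries with edgeR 4.0.16 (R 4.3.3): TMM scaling, its filter on low counts (6361 kept), the quasi-likelihood test with 6 groups and 11 comparisons, Benjamini-Hochberg adjustment over all identifiers kept, and calls at an adjusted p under 0.05. The common biological coefficient of variation was 10.2%. Intervals use the t quantile at the fit's degrees of freedom, and intervals and tests on the counts of 2 libraries a group have limited precision. The fit was tested on simulated data. Alternatives were RLE scaling, DESeq2 1.42.0, limma-trend 3.58.1, no low-count filter, a replicate block, only the groups compared, limma-trend on log2(FPKM + 1), which understates changes of low genes, and each library left out. A fit without chromosome III and mitochondrially encoded genes and the windows of 100 and 300 bases were added after seeing the data.

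The genes and lists were chosen with earlier results of these data known, and the role groups and sequence windows were set after values had been seen. Genes named are, per strain against WT, the 4 called MRPL genes with the largest fall and the 2 with the largest rise at a mean of at least 5 CPM, the 3 highest and 3 lowest by WT FPKM, those called in opposite directions, and of each other list up to 3 called genes with the largest change. Other genes were named after their values were seen. Sequences were read from the RefSeq R64 reference.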

Additional observations from a re-analysis of the deposited data

Results flagged for a closer look

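The effect of deleting JHD2 differed between the background with the Sdc1 point mutant and the background with wild-type SDC1 in 18 MRPL genes, by edgeR's interaction term with an adjusted p under 0.05 over all genes. The difference, on the log2 scale, was -1.37 for MRPL50, -1.13 for MRPL19, -1.12 for MRPL23, -1.04 for MRPL3 and -1.04 for MRPL39. It was -0.98 for MRPL11, -0.94 for MRPL10, -0.87 for MRPL6, -0.84 for MRPL20 and -0.82 for MRPL17. It was -0.78 for MRPL44, -0.75 for MRPL27, -0.75 for MRPL33, -0.66 for MRPL9 and -0.66 for MRPL40. The smallest were -0.56 for MRPL22, -0.54 for MRPL31 and -0.50 for MRPL8. The calls of MRPL6, MRPL8, MRPL9, MRPL17, MRPL22, MRPL31, MRPL33, MRPL39 and MRPL44 ended in at least 1 of the other settings.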

How the results depend on the processing

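None of the 144 calls of MRPL genes changed direction under any alternative run. Of them 138 kept their side of the threshold under RLE scaling, 129 with DESeq2, 142 with limma-trend, 143 without the low-count filter, 124 with only the groups compared in the fit, 134 in the deposited FPKM, and 136 without chromosome III and mitochondrially encoded genes, where 3 others were lost and MRPL32 was not in the fit. Without 1 library 455 of 648 did, where an arm left with 1 library is assumed to vary like the other groups. With a replicate block 143 of 144 did, the exception being MRPL24 in Sdc1_KO against Sdc1_mut (-0.40, adjusted p = 0.061). The block gave 13 lower and 2 higher genes in Sdc1_KO, 22 and 2 in the double mutant against WT, 21 and 1 against Sdc1_mut, and 19 below 0 in the interaction. Replicate deviations correlated from -0.131 to 0.156 between groups, so the numbers do not pair the samples.

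Counts that moved by over 1.5 times were as follows. Genes higher in Sdc1_KO against WT numbered 1 with only the groups compared and 1 without chromosome III. Those higher in Dpy30_KO numbered 5 in the FPKM, and those higher in Jhd2_KO 1 with DESeq2 and 4 with only the groups compared. Those higher in the double mutant numbered 0 against Sdc1_mut with DESeq2, and 1 against Jhd2_KO with DESeq2 and in the FPKM. Between Sdc1_KO and Sdc1_mut 1 was lower with only the groups compared and 0 were higher without chromosome III, and between Sdc1_KO and Dpy30_KO 0 and 0. In the interaction 1 was above 0 with only the groups compared and in the FPKM. The cause was not tested.

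Without single libraries the counts of lower and higher genes ranged from 8 to 16 and 1 to 3 in Sdc1_KO, 3 to 6 and 2 to 4 in Dpy30_KO and 3 to 5 and 3 to 5 in Sdc1_mut. In the double mutant they ranged from 16 to 22 against WT (with 2 higher), 11 to 19 against Sdc1_mut (with 0 higher) and 20 to 28 against Jhd2_KO (with 1 to 2 higher). Against Sdc1_mut Sdc1_KO had 1 to 21 lower and 1 to 2 higher, against Dpy30_KO 0 to 17 and 1, and the interaction had 9 to 18 below 0. The low count of MRPL38 limits what could be detected for it.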
